A study of Mus musculus with 18 samples.

Results

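The proteasome and immunoproteasome genes are described here across 14 days of primary culture of mouse kidney proximal tubule cells. Members were chosen by name: every gene whose symbol is Psm, a letter from a to g, a number and at most 1 further letter. The rule found 49 of the 55421 genes in the deposited tables. They comprise 14 constitutive subunits of the 20S core, 3 immune catalytic subunits (Psmb8, Psmb9 and Psmb10), 2 core subunits known mainly from single tissues (Psma8 and Psmb11), 17 subunits of the 19S cap, 7 assembly chaperones, and 6 activator and inhibitor genes. The name rule uses no expression value, though members and lists were chosen with earlier results of these data known.

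The 18 libraries were polyA RNA-seq of untreated, wild-type cells, with 3 replicates (A, B and C) on each of days 1, 2, 4, 7 and 14 of culture and on day 0. Day 0 was the freshly isolated tubule preparation, made with collagenase and Percoll. The donors were female C57BL/6J mice, 6 weeks old (strain C57BL/6 in the labels). Later days were the same kind of preparation grown on tissue culture plastic without passage. The labels call A, B and C biological replicates without saying whether they are separate animals or dishes. The p-values therefore set differences between days only against the scatter of these libraries, which can be technical in origin. The preparation is enriched and not a sorted cell type.

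As background, the proteasome is the large protease that degrades proteins tagged with ubiquitin. Its 20S core is a barrel of stacked alpha and beta rings, with the proteolytic sites in Psmb5, Psmb6 and Psmb7; the 19S cap binds the ubiquitin tag, removes it, unfolds the substrate with a ring of ATPases and feeds it into the barrel. Interferon exposure is known to swap the catalytic subunits for Psmb8, Psmb9 and Psmb10, which favours cutting of peptides for MHC class I display, and to raise the PA28 activator pair Psme1 and Psme2.

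Libraries held between 23799559 and 37579097 estimated reads. Levels are given as CPM (reads relative to the TMM-scaled library size) within a gene and as TPM (which also divides by transcript length) between genes. Calls are edgeR quasi-likelihood tests adjusted with Benjamini-Hochberg over all 18754 tested genes, at an adjusted p under 0.05. Most of the transcriptome changed in culture, so the scaling matters for every comparison with day 0. With library sizes alone the median gene moved up by a further 0.30 log2 on day 1, 0.49 on day 4 and 0.56 on day 14, but by 0.01 for day 7 against day 4. Changes are therefore relative to the bulk of genes, and those against day 0 depend on the scaling more than does the step between days 4 and 7. The labelled cell type was checked by its markers: 10 proximal tubule markers had a sum of 22.7 ± 5.42 CPM on day 14 and 24317 ± 2651 CPM on day 0 (SD, n = 3 each), and all 10 were called lower on each of the 5 culture days than on day 0. Slc34a1, the proximal tubule phosphate carrier, averaged 0.507 CPM on day 14 and 13753 CPM on day 0, while Umod, a gene of the thick ascending limb, averaged 2.25 CPM on day 14 and 2090 CPM on day 0, so RNA of that segment was also in the starting preparation. Day 7 replicate C stood apart: its mean correlation of log2 CPM with the day 4 libraries was 0.975, against 0.952 and 0.953 for replicates A and B.

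Proteasome transcripts as a whole rose early in culture, had their highest mean on day 4 and were lower again on day 7. The 49 members together summed to 4952 ± 158 TPM on day 0, 8532 ± 470 by day 1, 10916 ± 455 by day 2, 11531 ± 361 by day 4, 9293 ± 552 by day 7 and 9861 ± 178 by day 14 (each a mean with SD, n = 3). The libraries of day 4 ranged between 11168 and 11889 TPM, clear of the range of day 0 (4780 to 5091 TPM) and of day 7 (8971 to 9931 TPM). They overlapped the range of day 2 (10404 to 11275 TPM). In TMM-scaled CPM the sum was 5606 ± 76.7 on day 0, 7886 ± 177 by day 1, 8526 ± 140 by day 2 and 8691 ± 380 by day 4. It was 6583 ± 288 by day 7 and 6459 ± 206 by day 14, so the late excess over day 0 was smaller on that scale.

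**Figure D1:**
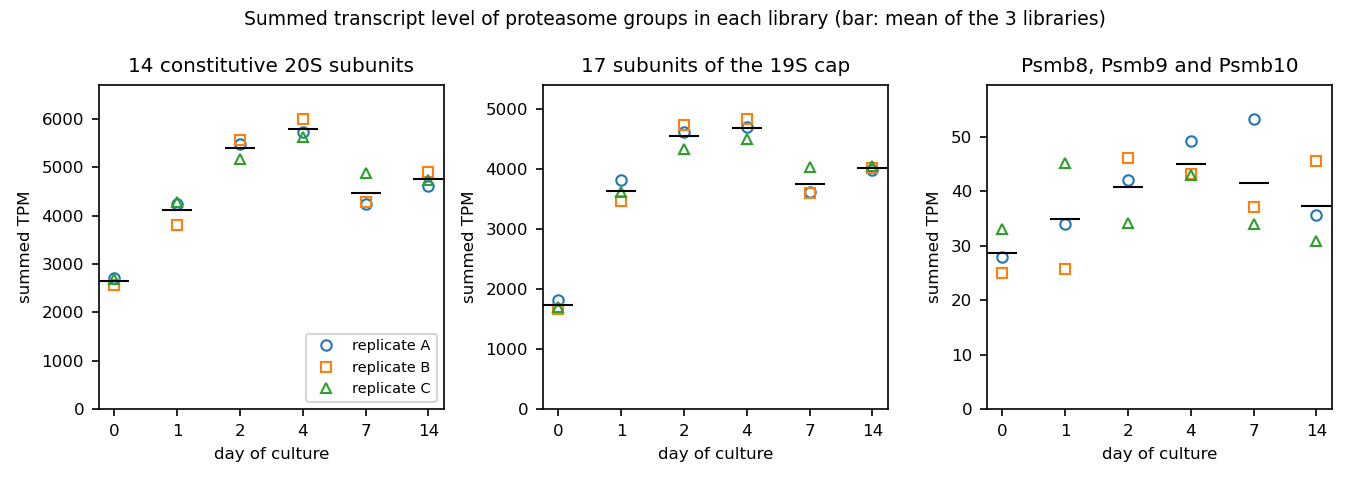
Summed TPM of 3 groups of proteasome genes in each library (vertical axis, from 0) by day of culture (horizontal axis, days spaced evenly); symbols are replicates A, B and C and the bar is their mean. The 14 constitutive core subunits and the 17 cap subunits lie highest on days 2 and 4. The 3 immune subunits together lie between 25.1 and 53.2 TPM, with wide scatter on days 1 and 7. All their day 4 libraries lie above those of day 0 on this scale, but below them in CPM, which is not drawn.

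Of the 48 members that could be tested, 29 were called higher and 9 lower when day 1 was set against day 0; over all tested genes 33.1% were called higher and 37.1% lower. On day 2 against day 0, 33 members were higher and 6 lower (38.9% and 35.3% of all genes). On day 4 against day 0, 32 were higher and 7 lower (38.1% and 36.8%), with a median log2 fold change of 0.48 over members and 0.08 over all genes. On day 7 against day 0 only 19 were higher and 9 lower (37.6% and 32.1%). On day 14 against day 0, 23 were higher and 14 lower (37.4% and 32.1%). The late shares of higher calls lay near or modestly above those of all genes. These counts depend on the scale. With library sizes alone, 33 members were higher and 3 lower on day 1, 40 and 2 on day 2, 43 and 2 on day 4, 37 and 3 on day 7, and 36 and 4 on day 14, each against day 0. By limma on log2(TPM + 1), the day 14 split was 40 higher and 0 lower, also 0 lower at an unadjusted p under 0.05. The 7 lower calls on day 4 became 2 without day 2 replicate A, day 14 replicate A or day 14 replicate C, 3 without day 14 replicate B, and 4 without day 4 replicate A or C. The 14 on day 14 became 8 without day 14 replicate A or C. Across the 6 days, 47 of the 48 differed (89.8% of all genes did); the exception was Psmb10 (adjusted p = 0.064).

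Between neighbouring days, the members moved mostly at the start and between days 4 and 7. On day 2 against day 1, 16 were higher and 0 lower by edgeR (17% and 17.5% of all genes). At an unadjusted p under 0.05 edgeR had 1 lower, limma on log2(TPM + 1) called 0 and the DESeq2 Wald test 1. The 16 became 7 without day 1 replicate B and 8 without day 2 replicate A, and 34 with library sizes alone. On day 4 against day 2, 8 were higher and 5 lower (19.4% and 22.1%). Higher calls were 4 without day 2 replicate C, 5 without day 4 replicate B and 12 without day 7 replicate C or any 1 day 14 library. Lower calls were 1 without day 2 replicate A, 3 without day 2 replicate B, day 4 replicate A, day 4 replicate B or any 1 day 14 library, and 10 without day 7 replicate C. On day 14 against day 7 there was 1 call each way, Psmb5 higher and Psme4 lower (5.07% and 7.46% of all genes). Without day 7 replicate C these were 4 higher and 3 lower (5.77% and 9.26% of all genes in that fit), and without any 1 day 14 library 0 were higher.

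Day 7 against day 4 was the step at which the family moved most uniformly: 36 members were called lower and 6 higher, where 15.9% of all genes were called lower and 22.0% higher. The median log2 fold change was −0.42 over members and 0.05 over all genes. All 14 constitutive core subunits and 16 of the 17 cap subunits were lower, and in 38 members every day 7 library lay below every day 4 library (21.3% of all genes did so). The 6 members that were higher were Psmb8, Psmb9, Psme1, Psme2, Psmd8 and Psmd10. The lower calls did not hang on scaling, with 35 members lower by library sizes alone and 35 by limma on log2(TPM + 1). Nor did they hang on the library that stood apart, with 38 lower and 6 higher without day 7 replicate C. In that fit 21.5% of all genes were called lower and 28% higher. The 6 higher calls were lost when only the libraries of the 2 days entered the fit (0 higher and 30 lower by edgeR; 7 higher and 38 lower at an unadjusted p under 0.05), while the DESeq2 Wald test called 7 higher and 38 lower.

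**Figure D2:**
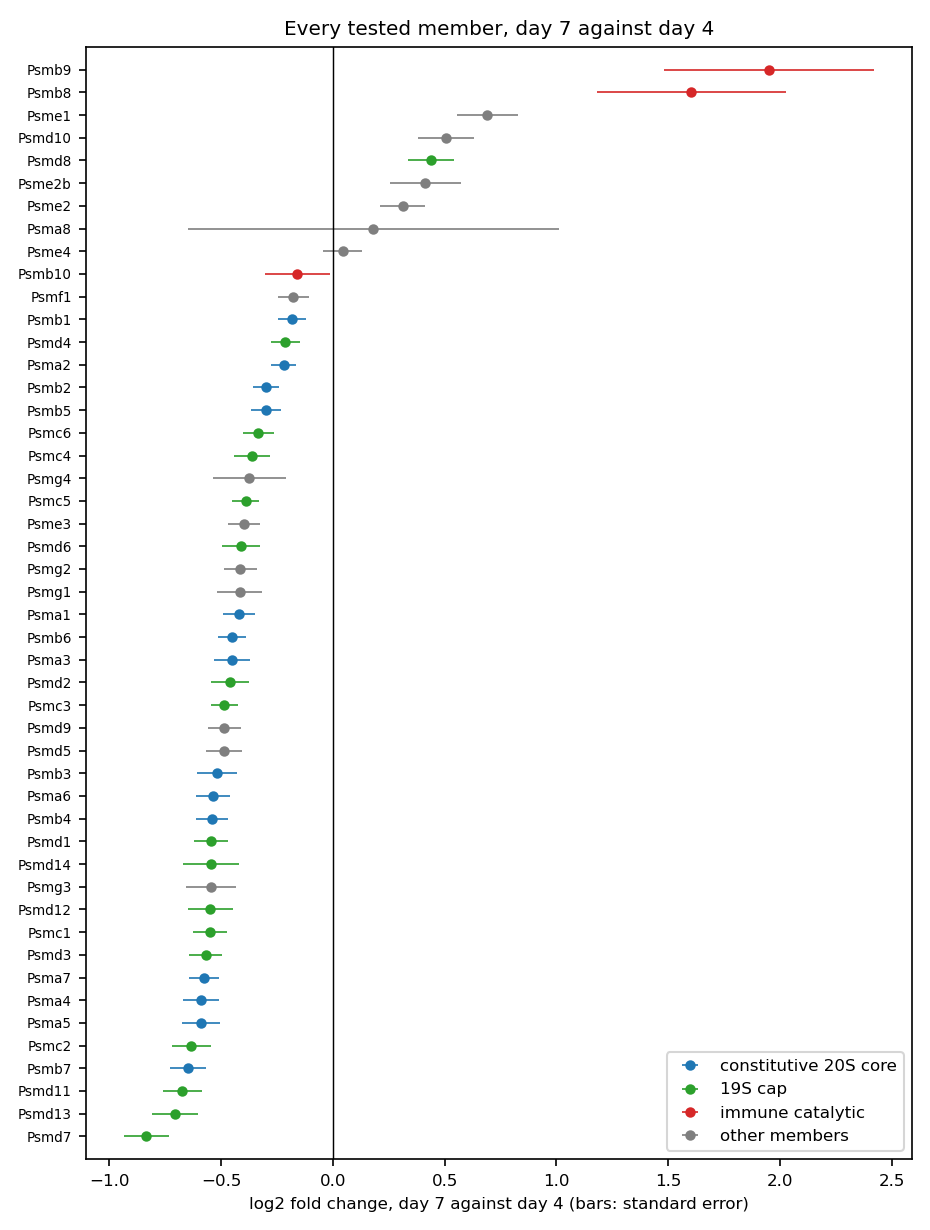
Log2 fold change of every tested member on day 7 against day 4 (horizontal axis; bars are standard errors), sorted by size and coloured by group. Constitutive core and cap subunits sit left of 0, from −0.83 for Psmd7, except Psmd8 at 0.44; Psmb8 and Psmb9 lie farthest right, at 1.60 and 1.95, with the widest bars beside Psma8.

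That step coincided with lower proliferation markers, and the courses of members and markers went together at some other steps and differed at others. The 7 markers of dividing cells (Mki67, Top2a, Ccnb1, Cdk1, Pcna, Mcm2 and Rrm2) summed to 606 ± 443 CPM on day 7 and 1797 ± 106 CPM on day 4 (SD, n = 3 each), with 77.2 ± 7.74 CPM on day 0. Mki67, a nuclear protein of cycling cells, stood at 12.9, 9.14 and 70.3 CPM in the day 7 libraries A, B and C and at 135, 116 and 104 CPM on day 4. Within day 7, replicate C had the highest marker sum, at 1117 CPM against 368.5 in A and 332.2 in B. It also had the highest sum of all members, at 6909.5 CPM against 6471.7 in A and 6367.2 in B. On day 1 the markers stood at 123 CPM, while all members together summed to 7886 CPM, against 5606 CPM on day 0. By day 2 both were higher, at 787 CPM for the markers and 8526 CPM for the members. Between days 7 and 14 the markers fell to 139 CPM, while the members went from 6583 to 6459 CPM (means, n = 3). The part of cell division in the proteasome values was not tested. In bulk RNA, fewer cells of a type and less RNA per cell cannot be told apart.

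The alpha ring, which gates the barrel, followed the family course in 6 of its 7 genes. Psma7, its highest member from day 2 on in TPM, measured 360, 405 and 361 CPM on day 4 and 180, 181 and 185 CPM on day 0. All 3 day 4 libraries lay above all 3 of day 0, a log2 fold change of 1.05 (SE 0.0682, adjusted p = 9.91e-10, edgeR). On day 7 it was 245, 250 and 260 CPM, again below day 4 without overlap (log2 −0.58, adjusted p = 2.98e-05, edgeR).

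Psma5 had the lowest TPM of the constitutive core on day 0 (74.6 ± 4.09, SD, n = 3). It was 149, 163 and 153 CPM on day 4 against 80.8, 77.035 and 75.2 CPM on day 0 (log2 1.00, SE 0.0861, adjusted p = 2.80e-08, edgeR). Its day 7 libraries, at 94.6, 96.2 and 118 CPM, fell between those of day 4 and day 0. Psma4 was the exception in the ring, at 166, 180 and 165 CPM on day 4 and 199, 201 and 196 CPM on day 0 (log2 −0.22, adjusted p = 0.0177, edgeR). That direction belongs to the TMM scale, since library sizes alone gave 0.27 and log2(TPM + 1) gave 0.41. The call was also lost without day 2 replicate A, day 4 replicate A, day 4 replicate C or any 1 day 14 library (adjusted p between 0.0624 and 0.276). Its fall on day 7 against day 4 (log2 −0.59, adjusted p = 7.21e-05, edgeR) was not scale-bound, at 106, 102 and 130 CPM on day 7.

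Among the 4 non-catalytic genes of the beta ring, Psmb2 and Psmb1 had the highest and lowest fold change on day 4 against day 0. Psmb2 had 175, 183 and 179 CPM on day 4 and 114, 111 and 113 CPM on day 0 (log2 0.67, SE 0.0579, adjusted p = 2.85e-08, edgeR). Psmb1 had 176, 194 and 177 CPM on day 4 and 164, 168 and 171 CPM on day 0, and was not called (log2 0.12, adjusted p = 0.0836, edgeR). It was called without day 2 replicate A or any 1 day 14 library (log2 0.24, adjusted p between 0.00402 and 0.00544). Over all 14 constitutive core genes, 10 were higher and 2 lower on day 1, 11 and 1 on day 4, and 5 and 4 on day 14, each against day 0. The shares of all tested genes were 33.1% higher and 37.1% lower for day 1, 38.1% and 36.8% on day 4, and 37.4% and 32.1% on day 14, so the core's day 14 counts lay near those of all genes. Lower calls became 1 on day 1 without day 1 replicate B, and 0 on day 4 without day 2 replicate A, day 4 replicate A, day 4 replicate C or any 1 day 14 library. By limma on log2(TPM + 1) they were 0 on both days. The 5 higher calls on day 14 became 3 without day 0 replicate B and 13 by limma. The core summed to 5785 ± 187 TPM on day 4, 4466 ± 360 TPM on day 7 and 4751 ± 145 TPM on day 14, against 2658 ± 75.9 TPM on day 0 (SD, n = 3 each). TPM of the 14 genes were spread 4.57-fold on day 0, from Psma5 to Psmb6, and 4.82-fold on day 4, from Psmb1 to Psma7.

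The catalytic subunits come in pairs, in which Psmb8 stands in for Psmb5, Psmb9 for Psmb6 and Psmb10 for Psmb7. Promoter windows of both members of the first 2 pairs and of Psme1 are shown because these genes part on day 7. They are RefSeq sequences on GRCm38.p6, 250 bases before the start and 50 from it on, given in the gene's direction. Capitals mark TGACNNNGC, the core of the site bound by the proteasome gene activator NFE2L1, or GAAANNGAA, a pattern of interferon regulatory factor sites, each searched on both strands.
Psmb5, chr14:54617946-54618245, minus strand: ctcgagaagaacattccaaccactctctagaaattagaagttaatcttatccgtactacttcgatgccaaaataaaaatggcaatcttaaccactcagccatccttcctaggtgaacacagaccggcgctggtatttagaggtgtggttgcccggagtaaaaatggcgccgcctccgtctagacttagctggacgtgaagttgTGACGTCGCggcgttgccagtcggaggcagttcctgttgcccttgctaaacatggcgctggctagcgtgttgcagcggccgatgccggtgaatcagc
Psmb8, chr17:34197945-34198244, plus strand: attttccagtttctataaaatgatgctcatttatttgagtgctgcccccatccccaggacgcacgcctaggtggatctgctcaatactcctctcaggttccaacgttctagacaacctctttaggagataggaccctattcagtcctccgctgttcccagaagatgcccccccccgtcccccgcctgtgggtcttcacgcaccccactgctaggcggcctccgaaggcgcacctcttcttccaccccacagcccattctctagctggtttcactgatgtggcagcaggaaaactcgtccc
Psmb6, chr11:70525107-70525406, plus strand: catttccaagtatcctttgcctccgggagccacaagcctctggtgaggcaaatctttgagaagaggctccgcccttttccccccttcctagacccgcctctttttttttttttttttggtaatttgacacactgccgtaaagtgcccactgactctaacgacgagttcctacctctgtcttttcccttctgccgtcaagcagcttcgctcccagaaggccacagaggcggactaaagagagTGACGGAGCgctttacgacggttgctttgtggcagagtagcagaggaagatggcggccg
Psmb9, chr17:34187281-34187580, minus strand: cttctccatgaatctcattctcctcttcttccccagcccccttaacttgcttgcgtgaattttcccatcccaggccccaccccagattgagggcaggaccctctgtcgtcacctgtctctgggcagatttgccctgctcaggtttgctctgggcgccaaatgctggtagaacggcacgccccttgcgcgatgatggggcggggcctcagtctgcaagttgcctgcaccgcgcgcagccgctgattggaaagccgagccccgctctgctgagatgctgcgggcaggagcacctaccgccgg
Psme1, chr14:55578244-55578543, plus strand: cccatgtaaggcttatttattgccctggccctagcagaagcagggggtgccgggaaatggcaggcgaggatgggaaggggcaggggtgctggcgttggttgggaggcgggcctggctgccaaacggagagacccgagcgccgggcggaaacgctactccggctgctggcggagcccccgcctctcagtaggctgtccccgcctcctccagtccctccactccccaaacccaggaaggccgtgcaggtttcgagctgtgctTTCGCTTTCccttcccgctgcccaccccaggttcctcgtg

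The window of Psmb5 holds TGACNNNGC 47 bases before the start and that of Psmb6 holds it 9 bases before the start, both on the gene's own strand, and Psme1 holds GAAANNGAA on the opposite strand 10 bases after the start. Neither pattern is in the windows of Psmb8, Psmb9 or Psmb10. The windows of Psmb8, Psmb9 and Psme1 lie wholly inside the GENCODE bounds of their genes. GENCODE starts those genes farther upstream, at chr17:34197721 (Psmb8), chr17:34187764 (Psmb9, minus strand) and chr14:55578123 (Psme1). Bases before those GENCODE starts were not searched, so an absent pattern here cannot be read as a trait of the whole promoter. Of the 41 members with a RefSeq window, 14.6% held TGACNNNGC and 17.1% held GAAANNGAA, and of all 27025 genes so listed 14.0% and 9.76% did. The NF-Y pattern CCAAT was in 34.1% of members and 41.1% of all genes. A match is a description of these letters and no evidence of binding.

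Psmb5, which carries the chymotrypsin-like site, measured 210, 218 and 201 CPM on day 4 and 163, 160 and 174 CPM on day 0 (log2 0.34, SE 0.0671, adjusted p = 2.63e-04, edgeR). On day 7 it was back at 173, 178 and 161 CPM, overlapping day 0. Psmb6, with the caspase-like site, had 203, 220 and 196 CPM on day 4 and 191, 187 and 197 CPM on day 0, which overlap and were not called (log2 0.11, adjusted p = 0.125, edgeR). Without day 2 replicate A or any 1 day 14 library it was called (log2 0.22, adjusted p between 0.00627 and 0.00758). It was 148, 146 and 158 CPM on day 7, below all libraries of day 4 (log2 −0.45, adjusted p = 7.30e-05, edgeR). Psmb7, with the trypsin-like site, had 159, 172 and 162 CPM on day 4 and 131, 133 and 138 CPM on day 0 (log2 0.29, adjusted p = 0.00454, edgeR). It had 98.6, 96.7 and 119 CPM on day 7 (log2 −0.65 against day 4, adjusted p = 4.91e-05, edgeR).

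The immune catalytic genes were scarce at every time, and Psmb8 and Psmb9 took another course than the family. Psmb10 had its highest mean on day 4 in both CPM and TPM, and in counts it did not pass the test across the 6 days (adjusted p = 0.064, edgeR). They lie on GRCm38 at chr17:34197721-34201454 (Psmb8), chr17:34181987-34187764 (Psmb9) and chr8:105935735-105938444 (Psmb10), all protein-coding genes. Of the TPM of the 6 catalytic genes, the immune 3 made up 3.79 ± 0.37% on day 0, 3.18 ± 0.67% by day 1, 2.82 ± 0.33% by day 2, 3.28 ± 0.26% by day 4, 3.83 ± 1.02% by day 7 and 3.06 ± 0.53% by day 14 (means with SD, n = 3). Psmb10 made up most of that share, at 17.5 ± 0.88 TPM on day 0, where Psmb8 had 7.82 ± 3.00 and Psmb9 3.31 ± 0.20 TPM. The direction of the summed immune 3 depended on the scale. In TPM the day 4 libraries ranged between 42.86 and 49.18, above the 25.05 to 33.01 of day 0. In CPM they ranged between 13.324 and 13.807, below the 17.215 to 22.893 of day 0. The cause of this difference between scales was not tested.

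Psmb9 had 0.285, 0.292 and 0.599 CPM on day 4 (9, 9 and 17 reads) and 3.64, 3.31 and 3.34 CPM on day 0 (77, 92 and 65 reads). The groups were far apart, with a log2 fold change of −3.13 (SE 0.469, adjusted p = 1.63e-05, edgeR), the deepest fall in the family. It was also below day 0 on day 1 (log2 −1.16, adjusted p = 0.0207, edgeR) and on day 14 (log2 −1.62, adjusted p = 0.00284, edgeR), where the libraries had 1.03, 1.104 and 1.21 CPM. The day 1 call was lost without day 1 replicate B (log2 −0.85, adjusted p = 0.085) and with library sizes alone (log2 −0.83, adjusted p = 0.0899), and the day 14 call by limma on log2(TPM + 1) (log2 −0.61, adjusted p = 0.0732).

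On day 7 Psmb9 measured 2.52, 1.35 and 0.638 CPM in replicates A, B and C, each above every day 4 library (log2 1.95, SE 0.470, adjusted p = 0.00436, edgeR). Replicate C, the library nearest day 4, was also the lowest here. Without it the log2 fold change was 2.31 (adjusted p = 2.06e-04), and with only the libraries of days 7 and 4 it was 1.91 (adjusted p = 0.06).

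Psmb8 had 1.96, 1.72 and 2.89 CPM on day 4 (62, 53 and 82 reads) and 5.59, 4.54 and 8.67 CPM on day 0 (118, 126 and 169 reads), a log2 fold change of −1.51 (SE 0.426, adjusted p = 0.00446, edgeR). By limma on log2(TPM + 1) this was −0.87 and not called (adjusted p = 0.0616). Day 1 was split, at 8.60, 4.24 and 9.61 CPM, and was not called against day 0 (log2 0.26, adjusted p = 0.573, edgeR); nor was day 14, at 5.28, 6.45 and 4.89 CPM (log2 −0.17, adjusted p = 0.718, edgeR).

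On day 7 Psmb8 measured 11.03, 6.199 and 2.66 CPM in replicates A, B and C, and replicate C overlapped day 4. The log2 fold change against day 4 was 1.60 (SE 0.423, adjusted p = 0.00758, edgeR). It was 1.98 without replicate C (adjusted p = 1.75e-04) and 1.02 without replicate A (adjusted p = 0.0694), and it was not called with only the libraries of days 7 and 4 (log2 1.57, adjusted p = 0.0716).

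Psmb10 barely moved in read counts, with 11.5, 11.3 and 10.3 CPM on day 4 and 10.7, 9.36 and 10.9 CPM on day 0 (log2 0.10, adjusted p = 0.532, edgeR). In TPM it was 40.8 ± 4.56 on day 4, against 17.5 ± 0.88 on day 0 (SD, n = 3). By limma on log2(TPM + 1) the difference was 1.17 (adjusted p = 1.05e-05), on a scale that moved the median gene by 0.61. TPM divide by a transcript length that the authors' tool estimates per library, and the part of that step was not tested. Its lower value on day 14 (7.71, 8.66 and 7.17 CPM; log2 −0.39, adjusted p = 0.0272, edgeR) was lost without any 1 of the day 14 libraries (adjusted p = 0.158, 0.0694 and 0.232 without A, B and C). It was also lost without day 0 replicate A or C or day 2 replicate A (adjusted p = 0.0707, 0.0768 and 0.0952), and turned to 0.17 with library sizes alone.

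**Figure D3:**
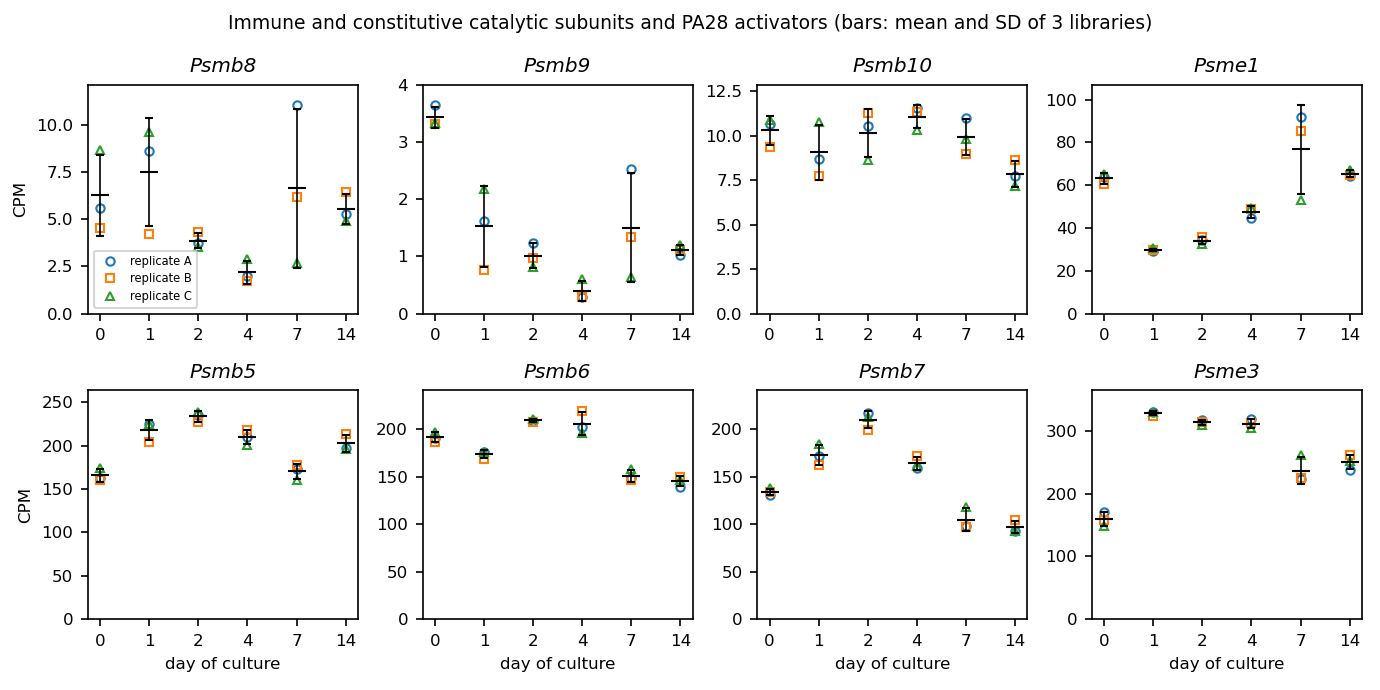
CPM of the immune catalytic genes, their constitutive partners and the activators Psme1 and Psme3 in each library (vertical axes, from 0, differing between panels) by day of culture; symbols are replicates A, B and C, and bars are the mean and SD of 3 libraries. Psmb8, Psmb9 and Psme1 show wide SDs on day 7, where replicate C lies lowest, and Psmb8 and Psmb9 are lowest on day 4.

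Set against the partner it replaces, each immune subunit can be read free of library scaling. Psmb9 in TPM was 0.0893 ± 0.0505% of Psmb6 on day 4, 0.503 ± 0.349% on day 7 and 0.397 ± 0.0669% on day 14, against 0.973 ± 0.0352% on day 0 (SD, n = 3 each). Over the 15 culture libraries the log2 ratio was lower by 1.77 than in the 3 day 0 libraries, with no overlap (exact permutation test, two-sided, p = 0.00245, the smallest these libraries allow; Benjamini-Hochberg adjusted over 18 such tests, 0.0441). With 1 library fewer the smallest p these groups allow no longer passes the adjustment, so leaving libraries out could not test the call; the difference then lay between −1.89 and −1.63. On log2 CPM it was −1.64 and did not pass.

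Psmb8 in TPM was 0.783 ± 0.310% of Psmb5 on day 4 and 2.92 ± 1.81% on day 7, against 3.15 ± 1.05% on day 0 (SD, n = 3 each). The log2 ratio was 2.01 lower on day 4 than on day 0 without overlap, at the smallest p that 3 against 3 libraries allow (exact permutation test, two-sided, p = 0.1, adjusted 0.139). Psmb10 was 15.3 ± 1.83% of Psmb7 on day 4 against 12.5 ± 0.32% on day 0 (SD, n = 3 each; exact p = 0.1, adjusted 0.139), which turned to a log2 difference of −0.19 when CPM were used in place of TPM.

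Leukocytes express the immunoproteasome strongly, and their markers were measured beside it. The 17 leukocyte genes summed to between 13.4 and 18.8 CPM in the day 4 libraries and between 110.8 and 278.2 CPM on day 0. Of these, 13 could be tested, and 11 were lower on day 4 than on day 0 (36.8% of all genes were). The lymphocyte genes Cd3d and Nkg7 had 0 reads in all 15 culture libraries and Cd3e had 0 on days 4, 7 and 14, where a count of 0 allows up to 3 reads. On day 7 the sum was 26.7, 25.2 and 60.4 CPM in replicates A, B and C, so it was highest in the replicate where Psmb8 and Psmb9 were lowest. Of the 60.4 CPM in replicate C, 46.7 CPM came from Lyz2, a myeloid lysozyme gene with 4.33 CPM in A and 4.82 CPM in B, chosen here after its values were seen. Of the 13 tested, 2 were higher and 1 lower than on day 4 (22.0% and 15.9% of all genes). Ptprc, the pan-leukocyte CD45, had 7.06, 8.50 and 2.51 CPM on day 7 in replicates A, B and C and 1.20, 1.33 and 1.80 CPM on day 4, and so ran opposite to the sum among the day 7 libraries. The part of leukocytes in the course of Psmb8 and Psmb9 was not tested.

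The 19S cap showed the largest rises of the family. Over its 17 genes, 14 were higher and 1 lower on day 1, 16 and 0 on day 4, and 12 and 3 on day 14, each against day 0. All tested genes gave 33.1% higher and 37.1% lower for day 1, 38.1% and 36.8% on day 4, and 37.4% and 32.1% on day 14. Its sum was 4672 ± 169 TPM on day 4, 3746 ± 248 TPM on day 7 and 4012 ± 35.6 TPM on day 14, against 1728 ± 77.9 TPM on day 0 (SD, n = 3 each). The median log2 fold change on day 4 was 0.76 over cap genes and 0.44 over constitutive core genes; the difference between these groups was not tested. The single lower call on day 1 was Psmd3. On day 4 edgeR had 0 lower also at an unadjusted p under 0.05, limma on log2(TPM + 1) called 0, the DESeq2 Wald test called 1, and 1 was called without replicate B of day 0 or of day 4. The 3 lower calls on day 14 became 1 without day 0 replicate A, day 2 replicate A or any 1 day 14 library.

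Psmd11, a lid subunit, had 468, 463 and 425 CPM on day 1 and 140, 119 and 131 CPM on day 0, more than 3 times as much in every day 1 library as in any day 0 library. Its log2 fold change was 1.80 (SE 0.0883, adjusted p = 7.80e-11, edgeR), the largest of any member on day 1, and on day 4 it was 1.86 (SE 0.0885, adjusted p = 2.99e-11, edgeR). On day 7 it was 314, 296 and 280 CPM, lower than on day 4 (log2 −0.67, adjusted p = 5.06e-05, edgeR) yet above day 0. In TPM it was the highest cap gene on days 1, 2 and 4, at 576 ± 40.2 TPM on day 4 and 108 ± 13.6 TPM on day 0 (SD, n = 3 each).

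Psmd14, the deubiquitinase that strips ubiquitin chains from substrates, had 214, 228 and 211 CPM on day 4 and 88.3, 83.4 and 82.9 CPM on day 0 (log2 1.36, SE 0.125, adjusted p = 6.26e-08, edgeR). On day 7 replicates A and B had 128 and 125 CPM, and replicate C had 194 CPM, nearer to day 4. Psmc6, an ATPase of the ring, had 191, 196 and 191 CPM on day 4 and 108, 117 and 106 CPM on day 0 (log2 0.80, adjusted p = 2.47e-08, edgeR). Its sister ATPase Psmc3 had 264, 285 and 250 CPM on day 4 and 202, 198 and 204 CPM on day 0 (log2 0.40, adjusted p = 2.01e-05, edgeR). All 6 ATPases were higher on day 4 than on day 0 and lower on day 7 than on day 4.

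Psmd3 and Psmd8 stood outside the cap's course, and Psmd7 had its deepest fall. Psmd3, a scaffold subunit of the lid, had 237, 242 and 217 CPM on day 1 and 326, 287 and 317 CPM on day 0 (log2 −0.42, adjusted p = 1.01e-04, edgeR). On day 4 it was 273, 301 and 263 CPM and was not called (log2 −0.15, adjusted p = 0.0679, edgeR). It was called lower without replicate B of day 0 or of day 4 (adjusted p = 0.0284 and 0.0304) and higher with library sizes alone (log2 0.34). Psmd8, a lid subunit named here after its values were seen, had 474, 482 and 332 CPM on day 7 and 312, 322 and 316 CPM on day 4, every day 7 library above day 4 (log2 0.44, SE 0.105, adjusted p = 0.00416, edgeR). It stayed at 454, 448 and 437 CPM on day 14, against 191, 184 and 186 CPM on day 0 (log2 1.25, adjusted p = 2.83e-08, edgeR). Psmd7, a lid subunit also chosen after its values were seen, had 133, 131 and 179 CPM on day 7 and 259, 282 and 250 CPM on day 4 (log2 −0.83, SE 0.1, adjusted p = 3.50e-05, edgeR), the largest fall of that step.

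**Figure D4:**
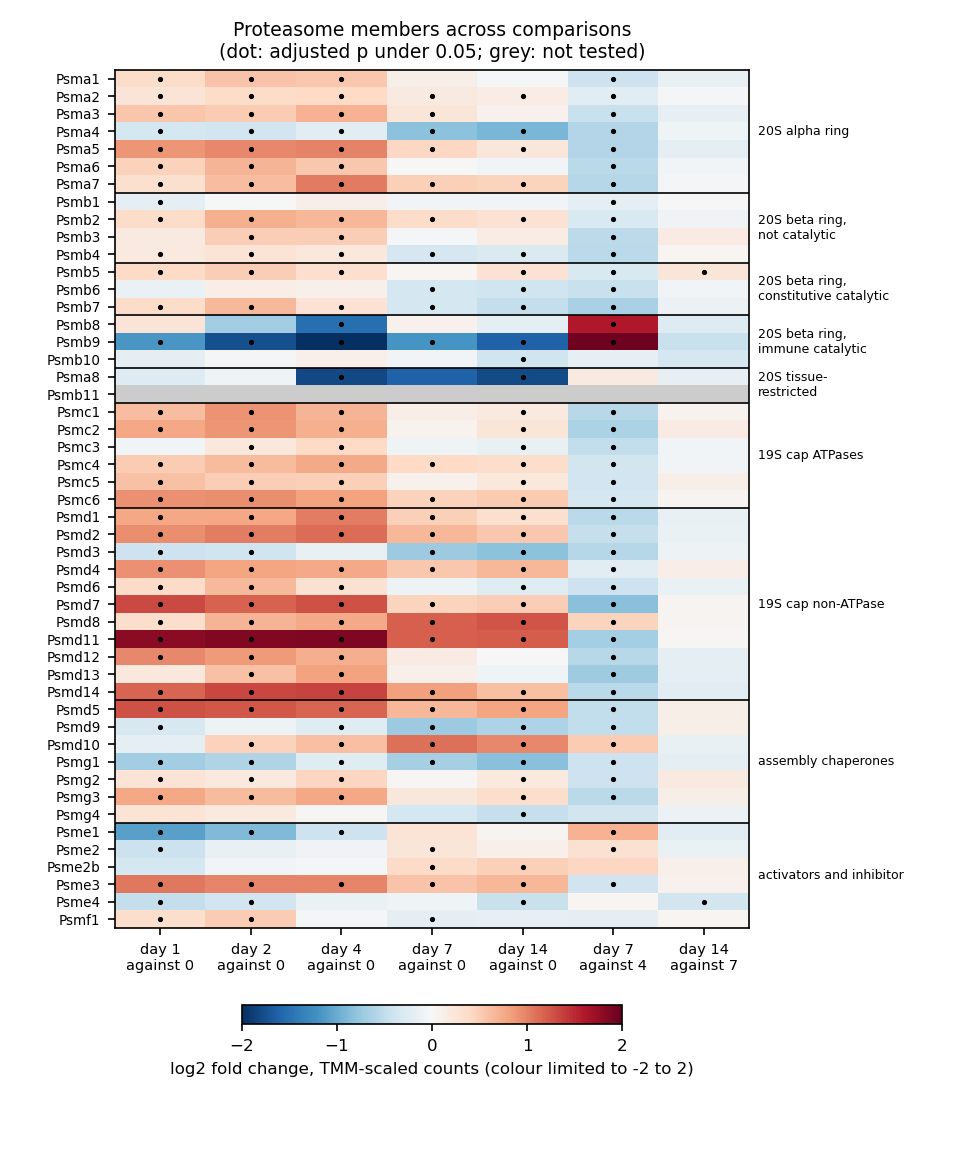
Log2 fold change of TMM-scaled counts for each of the 49 members (rows, grouped by role) in 7 comparisons (columns); red is higher and blue lower in the day named first, colour stops at 2 in either direction, a dot marks an adjusted p under 0.05 and grey is not tested. Most core and cap rows are red on days 1, 2 and 4 and blue for day 7 against day 4, and Psmb9 and Psme1 run the reverse.

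The assembly chaperones did not move as 1 group. Psmd5, a chaperone of the ATPase ring, had 239, 252 and 236 CPM on day 4 and 115, 113 and 98.1 CPM on day 0 (log2 1.16, SE 0.0809, adjusted p = 2.22e-09, edgeR). Psmd10, also known as gankyrin and like Psmd5 a chaperone of the ATPases, had 88.2, 82.8 and 55.9 CPM on day 7 and 52.4, 56.8 and 50.7 CPM on day 4, with replicate C just inside the day 4 range (log2 0.51, SE 0.124, adjusted p = 0.00487, edgeR). On day 14 it had 65.5, 73.1 and 66.5 CPM, against 35.2, 33.9 and 36.8 CPM on day 0 (log2 0.95, adjusted p = 4.66e-06, edgeR).

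Psmd9, the remaining ATPase chaperone, had 41.3, 42.4 and 40.05 CPM on day 4 and 51.3, 49.6 and 46.0 CPM on day 0 (log2 −0.25, adjusted p = 0.00656, edgeR), a direction that turned with library sizes alone (log2 0.25). The call was lost without day 2 replicate A or any 1 day 14 library (adjusted p between 0.152 and 0.166). Among the chaperones of the core, Psmg3 had 26.5, 27.5 and 24.3 CPM on day 4 and 15.6, 14.9 and 15.4 CPM on day 0 (log2 0.77, adjusted p = 1.19e-05, edgeR). Psmg2 was higher by a log2 of 0.43 (adjusted p = 6.92e-05, edgeR). Psmg1, which pairs with Psmg2, had 35.4, 39.7 and 32.7 CPM on day 4 and 42.7, 43.4 and 41.9 CPM on day 0 (log2 −0.25, adjusted p = 0.033, edgeR). This too was turned by library sizes alone (log2 0.25) and lost without day 0 replicate A or B, day 2 replicate A, day 4 replicate A or C, or any 1 day 14 library (adjusted p between 0.0667 and 0.271). Psmg4 was not called (log2 0.03, adjusted p = 0.885, edgeR).

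The activators split between the PA28 gamma gene and the interferon-inducible pair. Psme3, the nuclear PA28 gamma, had 319, 313 and 305 CPM on day 4 and 170, 158 and 148 CPM on day 0 (log2 0.97, SE 0.0731, adjusted p = 5.27e-09, edgeR). It was 223, 226 and 262 CPM on day 7, below day 4 (log2 −0.40, adjusted p = 6.41e-04, edgeR).

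Psme1, PA28 alpha, ran the other way, at 29.4, 29.7 and 30.4 CPM on day 1 and 63.8, 60.5 and 65.3 CPM on day 0. Every day 1 library was below every day 0 library (log2 −1.08, SE 0.139, adjusted p = 3.96e-06, edgeR). On day 7 it had 91.8, 85.1 and 53.2 CPM, all above the 44.4, 48.8 and 49.3 CPM of day 4 (log2 0.69, SE 0.137, adjusted p = 0.00116, edgeR), with replicate C again the lowest. Without replicate C this was 0.90 (adjusted p = 2.40e-08), and with only the libraries of the 2 days 0.66 (adjusted p = 0.0583). Day 4 itself was below day 0 on the TMM scale (log2 −0.41, adjusted p = 0.0129, edgeR) but not with library sizes alone (log2 0.08), nor without day 2 replicate A, day 4 replicate A or any 1 day 14 library (adjusted p between 0.0526 and 0.0725).

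Psme2, PA28 beta, had 46.3, 38.8 and 50.5 CPM on day 1 and 57.6, 59.1 and 66.9 CPM on day 0 (log2 −0.44, adjusted p = 0.00132, edgeR), a call lost with library sizes alone (log2 −0.12). On day 7 it had 82.0, 71.6 and 62.5 CPM against 58.5, 56.7 and 59.0 CPM on day 4 (log2 0.31, adjusted p = 0.0245, edgeR). The call was lost without day 7 replicate A (log2 0.21, adjusted p = 0.153) and without day 7 replicate B, day 2 replicate A, any 1 day 4 library or any 1 day 14 library (adjusted p between 0.0534 and 0.078). Psme2b is a near-identical copy of Psme2, so reads may be divided between them. Its own value on day 7 against day 4 was not called (log2 0.41, adjusted p = 0.051, edgeR), but was without day 1 replicate A or C, day 2 replicate C or day 7 replicate B (adjusted p between 0.0371 and 0.0461). Psme4, the PA200 activator, and Psmf1, the inhibitor PI31, were not called on day 4 against day 0 (log2 −0.13 and −0.02, adjusted p = 0.209 and 0.778, edgeR), but were higher with library sizes alone (log2 0.37 and 0.47).

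The 2 tissue-restricted subunits were at the edge of detection. Psma8, the testis form of an alpha subunit, had 7, 0 and 5 reads on day 4 and 6, 18 and 9 reads on day 0. Psmb11, the catalytic subunit of cortical thymic epithelium, had at most 5 reads in any library and 0 in each library of days 0 and 7, where a count of 0 allows up to 3 reads; it was not tested.

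Genes that work with the proteasome were mostly higher on day 1 too. Of 27 partners and regulators, 19 were called higher and 4 lower in the comparison of day 1 with day 0, where all genes gave 33.1% and 37.1%. On day 7 against day 4 the calls were 4 higher and 13 lower, where all genes gave 22.0% and 15.9%. Zfand2a, a stress-induced proteasome-binding protein, had 179, 187 and 166 CPM on day 1 and 19.4, 16.8 and 18.4 CPM on day 0 (log2 3.29, adjusted p = 1.24e-12, edgeR). Usp14, the deubiquitinase bound to the cap, was higher by a log2 of 1.65 on day 1 (adjusted p = 2.12e-10, edgeR) and lower by a log2 of −0.42 on day 7 than on day 4 (adjusted p = 0.00154, edgeR). Rad23b, a shuttle for ubiquitinated proteins, had 1.35 and −0.33 (adjusted p = 7.56e-11 and 0.00107, edgeR). Ngly1, the glycanase that processes NFE2L1, was lower on day 1 than on day 0 (log2 −0.65, adjusted p = 2.09e-05, edgeR) and slightly higher on day 7 than on day 4 (log2 0.27, adjusted p = 0.0402, edgeR). The second call was lost in 9 of the 18 fits that left out 1 library (adjusted p up to 0.148). Sem1, a small lid subunit outside the name rule, was lower on day 1 (log2 −0.34, adjusted p = 1.64e-04, edgeR), which log2(TPM + 1) gave as 0.02.

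Antigen presentation and interferon signalling genes were mostly higher on day 7 than on day 4. Of 20, 13 were called higher and 1 lower at that step (22.0% and 15.9% of all genes), with a median log2 fold change of 0.54, against 0.05 over all genes. On day 1 against day 0 the calls were 8 higher and 4 lower (33.1% and 37.1% of all genes). The share of higher calls lay near that of all genes, and the share of lower calls was smaller. The median log2 fold change there was 0.25, against −0.01 over all genes. Canx and Pdia3, chaperones of MHC class I folding and peptide loading, were among the lower on day 1, by log2 −0.66 and −0.93 (adjusted p = 3.09e-07 and 5.40e-06, edgeR). B2m, the light chain of MHC class I, had 270, 224 and 306 CPM on day 7 and 136, 110 and 151 CPM on day 4 (log2 1.01, adjusted p = 2.32e-04, edgeR). Irf9, a subunit of the interferon-activated factor ISGF3, was higher by a log2 of 1.82 on day 7 than on day 4 (adjusted p = 0.00102, edgeR). The interferon gamma receptor genes Ifngr1 and Ifngr2 were higher by 1.39 and 0.50 (adjusted p = 1.30e-06 and 0.0149, edgeR), the second lost without day 7 replicate C or day 4 replicate C (adjusted p = 0.0526 and 0.0616). The peptide-loading chaperone Calr was lower by a log2 of −0.41 (adjusted p = 0.0444, edgeR), a call lost in 12 of the 18 fits that left out 1 library (adjusted p up to 0.208). The sum over 7 markers of fibroblasts and pericytes also differed at this step. It was between 87.7 and 98.4 CPM in the day 7 libraries and between 26.4 and 41.4 CPM on day 4, without overlap. The median log2 fold change of the tested markers was −0.15, with 2 called higher and 1 lower (22.0% and 15.9% of all genes). Of the 6 that could be tested, the collagen genes Col1a1 and Col1a2 were higher (log2 3.68 and 1.64, adjusted p = 7.85e-05 and 5.21e-04, edgeR) and Pdgfra, a fibroblast receptor, was lower (log2 −1.38, adjusted p = 0.0322, edgeR), all 3 named after their values were seen. Lum, a fibroblast proteoglycan, had 0 reads on both days, where a count of 0 allows up to 3 reads. The part of fibroblasts and pericytes in the antigen presentation values was not tested.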

How the data were processed

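PolyA RNA-seq covered 18 libraries, 3 on each of 6 days, grouped by the day and letter in the sample titles. The authors deposited estimated counts per gene (whole numbers) and TPM per gene; RSEM 1.3.3, STAR 2.7.8a, cutadapt 2.3, FastQC 0.11.8 and GRCm38 are named, per the submitters' processing notes. The sources used here do not give annotation release or strandedness, and near-identical copies may divide reads. After 5 reporter entries were left out, edgeR 4.0.16 (R 4.3.3) tested 18754 genes that passed filterByExpr, with TMM scaling and 1 model of the 6 day means; SE is the log2 fold change divided by the square root of F. Catalytic pairs were tested on log2(TPM + 0.1) ratios by exact permutation (SciPy 1.17.1). Alternatives used DESeq2 1.42.0 size factors and Wald test, library sizes alone, limma 3.58.1 on log2(TPM + 1) and log2(TPM + 0.1) for genes with a mean TPM of at least 0.5, no filters, no mitochondrially encoded genes, the libraries of 2 days alone, a replicate block and leaving out each library. The fits were tested on simulated counts. Same-day libraries always differed by more than sampling noise (smallest chi-square divided by its degrees of freedom 6.59). Deviations of same-letter libraries from their day means correlated over 0.1 in all 3 pairs for days 2 and 4 (0.203, 0.160 and 0.293), and for no other 2 days in all 3. Positions are from GENCODE vM21, promoters from RefSeq. Named genes were the catalytic, tissue-restricted, activator and chaperone members and Psmd14 whatever their values. To these came the highest and lowest member of the alpha ring, the non-catalytic beta ring and both cap classes on day 1 and day 4 against day 0, and up to 2 called partner genes per list and direction with the smallest adjusted p on day 1 and day 14 against day 0, beside 4 markers; Psmd7, Psmd8, Lyz2, Lum, Col1a1, Col1a2 and Pdgfra were added after their values were seen. Members and lists were chosen with earlier results of these data known.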

Additional observations from a re-analysis of the deposited data

How the results depend on the processing

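Calls against day 0 moved with the scaling, and the cause was not tested. The shares of all genes from the main fit are no background for the counts of other fits. Lower calls over all members were 3, 2, 2, 3 and 4 on days 1, 2, 4, 7 and 14 against day 0 with library sizes alone; limma on log2(TPM + 1) gave 3, 1, 1, 0 and 0, on log2(TPM + 0.1) 2, 1, 2, 0 and 0, and without its filter 2, 1, 1, 0 and 0. Higher calls were 37 and 36 on days 7 and 14 with library sizes alone, 41 and 40 by limma with either pseudocount, and 40 and 40 without the filter; day 7 had 12 with only the libraries of the 2 days, and day 4 had 3 lower without mitochondrially encoded genes. On day 2 against day 1, 34 were higher with library sizes alone, 10 without a filter on counts, 35 by limma with either pseudocount and 32 without its filter, and the DESeq2 Wald test called 1 lower. On day 4 against day 2, 5 were higher without a filter on counts, and 3 lower by limma on log2(TPM + 1) with or without its filter. On day 14 against day 7, higher calls were 2 with library sizes alone, 4 by each limma fit and 0 without a filter on counts or with only the 2 days, and lower calls 0 by each limma fit and with only the 2 days. On day 7 against day 4, higher calls were 0 over members and over the cap with only the 2 days.

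For the core, lower calls on day 1 were 0 with library sizes alone and by limma and 1 with only the 2 days; on day 4, 0 with library sizes alone, by limma and without mitochondrially encoded genes; on day 14, 1 with library sizes alone and 0 by limma. Core genes higher on day 14 were 3 with DESeq2 size factors, the DESeq2 Wald test, no filter or only the 2 days, 11 with library sizes alone and 13 by limma. Cap genes called lower were 0 on day 1 with library sizes alone and by limma, 1 on day 4 with DESeq2 size factors and the Wald test, and on day 14 1 with library sizes alone or without mitochondrially encoded genes and 0 by limma. The Psmb9 to Psmb6 ratio over all culture days was −1.64 on log2 CPM and no longer passed, and the Psmb10 to Psmb7 ratio on day 4 turned to −0.19.

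Leaving out single libraries gave these ranges. Members higher ranged over 7 to 19 (day 2 against 1), 4 to 12 (day 4 against 2) and 0 to 4 (day 14 against 7); members lower over 2 to 7 (day 4 against 0), 8 to 15 (day 14 against 0), 0 to 1 (day 2 against 1), 1 to 10 (day 4 against 2) and 1 to 3 (day 14 against 7). The core ranged over 1 to 3 lower on day 1, 0 to 1 lower on day 4 and 3 to 5 higher on day 14, and the cap over 0 to 1 lower on day 4 and 1 to 3 lower on day 14. The log2 ratio ranged from −1.89 to −1.63 for Psmb9 to Psmb6 and from −0.056 to 0.018 for Psmb10 to Psmb7 over all culture days, from −0.025 to 0.24 for Psmb10 to Psmb7 on day 14, and from −0.73 to 0.23 for Psmb8 to Psmb5 on day 7.

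Directions that turned are given with library sizes alone, then limma on log2(TPM + 1), the same with or without its filter, and on log2(TPM + 0.1). On day 4 against day 0 these were 0.083, 0.24 and 0.25 for Psme1, 0.42, 0.66 and 0.66 for Psme2, 0.46, 0.58 and 0.61 for Psme2b, 0.37, 0.50 and 0.52 for Psme4, 0.47, 0.80 and 0.82 for Psmf1, 0.25, 0.45 and 0.46 for Psmd9, 0.25, 0.39 and 0.39 for Psmg1, 0.27, 0.41 and 0.42 for Psma4, and 0.34, 0.48 and 0.48 for Psmd3. On day 14 Psmb10 turned to 0.17, 0.45 and 0.47. On day 1 only limma turned the sign, to 0.029 for Psma4 and 0.025 for Sem1 at either pseudocount.

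Over all days pairing by letter was weak and was not settled. Of 45 same-letter pairs of days, 8 had correlated deviations over 0.1, while 12 of 18 libraries correlated best with their own letter out of A, B and C. The mean correlation was 0.0346 for same-letter pairs and −0.0175 for other pairs. The second value is no separate comparison, since the deviations of the 3 libraries of a day cancel and so tie it to the first. Days 2 and 4 were the exception, with all 3 same-letter correlations over 0.1, and there the block left the counts at 8 higher and 5 lower. With the letter as a replicate block, 7 members were higher and 36 lower on day 7 against day 4, and of 107 results on single genes 104 kept their call, 1 gained and 2 lost it. Few reads limit Psmb8, Psmb9 and the tissue-restricted genes.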
